A study of Mus musculus with 8 samples.

Results

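The 7 long non-coding RNAs (lncRNAs) Gas5, Snhg1, Snhg3, Snhg5, Snhg6, Snhg8 and Snhg12, which host small nucleolar RNAs (snoRNAs), and the 2 nuclear lncRNAs Malat1 and Neat1 were followed in mouse embryonic stem cells (ESCs). They were the rows of the count table whose Ensembl identifier maps to these symbols, 9 of 55335 genes in all, and each of the 9 passed the filter on low counts that left 16504 genes for testing. The cells were the E14 line, grown on gelatin in serum with LIF, CHIR99021 and PD0325901, infected with the lentiviral vector GV248 and selected with puromycin. Control cells (NG in the labels) carried a scramble shRNA, and the other groups carried shRNA against Sox2 (Sox2-KD), Hnrnpk (hnRNPK-KD) or Cdk9 (Cdk9-KD). All 4 groups therefore share the vector, the selection and the medium. The sample titles do not name the shRNA sequence of each library, and the paper describes 2 against Sox2 and 2 against Hnrnpk. Whether the replicates of a group carried the same sequence is not stated in the sources used here. Each group had 2 biological replicates, 8 poly(A)-selected libraries in all, each prepared from a bulk culture of a single cell line. Fewer cells of a type and less RNA per cell cannot be told apart in such libraries, and p-values measure the spread between these cultures.

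A snoRNA host gene is transcribed as a longer RNA whose introns are cut out and trimmed to snoRNAs, which guide the chemical modification of ribosomal and other RNAs. Box C/D snoRNAs guide 2′-O-methylation and box H/ACA snoRNAs guide pseudouridylation. The spliced exons of the hosts often encode no protein, several begin with a pyrimidine tract like that of ribosomal protein mRNAs (a 5′TOP), and many are removed in the cytoplasm by nonsense-mediated decay (NMD), as is known for Gas5. Malat1 stays in the nucleus at splicing speckles and ends by RNase P cleavage before a tRNA-like RNA rather than by ordinary polyadenylation. Neat1 is the scaffold of paraspeckles, and has a short polyadenylated and a long isoform.

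In the GENCODE vM21 annotation on GRCm38, the hosts span between 853 (Snhg8) and 5673 bases (Snhg3) and hold between 1 and 10 snoRNA genes. Gas5 (ENSMUSG00000053332.13) lies on the + strand at chr1:161034422-161038539 and holds 10 annotated snoRNA genes, of which 2 overlapping entries carry the name Snord80. Snhg1 (ENSMUSG00000108414.1, + strand, chr19:8723475-8726443) holds 8, Snhg12 (ENSMUSG00000086290.9, + strand, chr4:132308623-132311024) holds 5, of which 2 overlapping entries carry the name Snora16a, and Snhg5 (ENSMUSG00000097195.9, − strand, chr9:88521050-88522929) holds 2. Snhg3 (ENSMUSG00000085241.7, − strand, chr4:132348014-132353686) holds 2, while Snhg6 (ENSMUSG00000098234.7, − strand, chr1:9941959-9944118) and Snhg8 (ENSMUSG00000104960.1, − strand, chr3:123507552-123508404) hold 1 each. Malat1 (ENSMUSG00000092341.3, − strand, chr19:5795690-5802672) and Neat1 (ENSMUSG00000092274.3, − strand, chr19:5824708-5845478) are neighbours, 22035 bases apart.

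**Figure D1:**
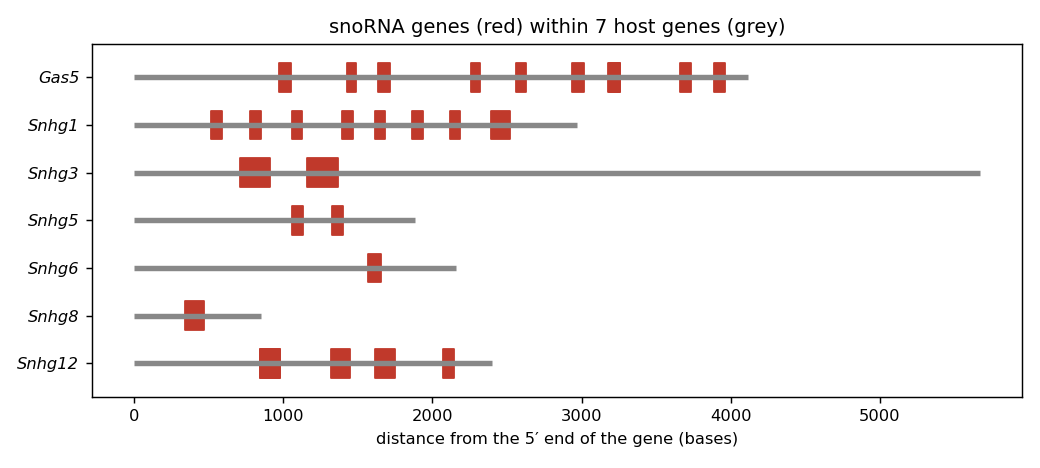
Map of the 7 host genes (grey lines, to scale in bases from the 5′ end of each gene) with their annotated snoRNA genes (red boxes). Gas5 holds 10 snoRNA genes and Snhg12 holds 5, each with 2 that overlap, and Snhg6 and Snhg8 hold 1 each.

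These 7 snoRNAs, 5 of box C/D and 2 of box H/ACA, are shown as examples of what the hosts carry. They were chosen among those in which the box letters were found, and the sequences are from the GENCODE vM21 transcripts. Capitals mark the letters TGATGA within the first 20 bases and CTGA within the last 15 (box C and box D) or ACA within the last 8 (box ACA).
Snord47: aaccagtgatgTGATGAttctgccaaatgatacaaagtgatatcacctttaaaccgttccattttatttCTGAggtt
Snord50a: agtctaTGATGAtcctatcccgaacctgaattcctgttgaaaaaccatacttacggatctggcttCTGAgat
Snord50b: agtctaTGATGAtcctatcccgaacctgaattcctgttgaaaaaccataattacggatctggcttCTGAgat
Snord87: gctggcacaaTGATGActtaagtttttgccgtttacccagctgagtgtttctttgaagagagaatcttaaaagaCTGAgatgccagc
Snord99: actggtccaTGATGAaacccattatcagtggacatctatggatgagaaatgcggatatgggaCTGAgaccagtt
Snora73b: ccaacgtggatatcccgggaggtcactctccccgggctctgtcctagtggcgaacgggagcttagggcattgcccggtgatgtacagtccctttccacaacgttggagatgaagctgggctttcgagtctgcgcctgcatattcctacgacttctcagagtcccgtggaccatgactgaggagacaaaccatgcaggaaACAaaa
Snora24: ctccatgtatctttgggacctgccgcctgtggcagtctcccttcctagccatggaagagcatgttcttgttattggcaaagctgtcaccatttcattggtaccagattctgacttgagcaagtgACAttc
Snord47 is one of the snoRNAs of Gas5 (chr1:161038082-161038158, + strand). Snord50a (chr9:88521529-88521600) and Snord50b (chr9:88521797-88521868) are those of Snhg5, both on the − strand. Over their 72 bases they differ by C50A alone, with the base of Snord50a first and positions counted from the 5′ end. Snord87 (chr1:9942463-9942549, − strand) is the snoRNA of Snhg6, Snord99 (chr4:132310691-132310764, + strand) is one of Snhg12, Snora73b (chr4:132352322-132352526, − strand) is one of Snhg3 and Snora24 (chr3:123507937-123508066, − strand) is that of Snhg8. Both letter patterns of box C/D were found in 17 of the 29 snoRNA genes of the 7 hosts and in 20.2% of the 1507 annotated snoRNA genes.

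The libraries did not measure the snoRNAs themselves. Of the 29 snoRNA genes in the 7 hosts, 28 had no count in any library, and the exception, Snord87, had between 5 and 18. Of all 1507 snoRNA genes, 1182 had none. Poly(A) selection removes RNAs without a tail, and the tailless RNA Rn7sk had between 0 and 10 counts a library. Rpph1 and Terc, which also lack a tail, had none in any library. Rn7sk, Rpph1 and Terc come from a list of 4 RNAs without a tail, none of which passed the filter on low counts. The counts of the other listed RNA are not shown. Of the 29 genes, 26 lie wholly inside annotated exons of their host, and how the counting step treated reads shared between genes is not stated. Neither the part of poly(A) selection nor that of the counting in the 0 values of the snoRNA genes was tested. The values that follow are those of the hosts.

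The 60 bases around the start of the hosts are shown because a 5′TOP would lie there. They are from RefSeq promoters of GRCm38.p6, which hold 7 of the 9 genes (8 starts). Capitals mark the longest run of C and T that touches the window from 10 bases before to 20 bases after the start, and the start is the base at position 31 of 60.
Gas5 second start: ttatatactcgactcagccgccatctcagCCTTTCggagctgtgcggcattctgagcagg
Snhg1: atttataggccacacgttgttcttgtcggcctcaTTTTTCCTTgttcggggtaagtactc
Snhg5: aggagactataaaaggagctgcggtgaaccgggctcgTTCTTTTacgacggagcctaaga
Snhg8: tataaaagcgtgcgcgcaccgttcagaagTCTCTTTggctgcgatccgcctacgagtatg
Snhg12: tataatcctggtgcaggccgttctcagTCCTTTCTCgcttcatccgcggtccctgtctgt
Malat1: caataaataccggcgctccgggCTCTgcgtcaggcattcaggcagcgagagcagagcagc
The windows are chr1:161035136-161035195 (+) for Gas5, chr19:8723457-8723516 (+) for Snhg1, chr9:88522868-88522927 (−) for Snhg5, chr3:123508307-123508366 (−) for Snhg8, chr4:132308648-132308707 (+) for Snhg12 and chr19:5802643-5802702 (−) for Malat1. The run was 9 bases long in Snhg1 and Snhg12, a length reached by 11.6% of the 32851 promoters in the table, and 7 in Snhg5 and Snhg8, reached by 24.6%. It was 6 at the second start of Gas5 (36.3%), 5 in Snhg3 (54.6%), 4 in Malat1 (74.6%) and 3 at the first start of Gas5 (90.8%). The run covered the start itself in Snhg8, Snhg12 and at the second start of Gas5. In Snhg1 and Snhg5 it began only at bases 5 and 8, counting the start as base 1. These runs are a description of the letters and not of translation.

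These 2 stretches of the nuclear lncRNAs are shown because an oligo(dT) bead binds A tracts and tails.
Malat1 A run: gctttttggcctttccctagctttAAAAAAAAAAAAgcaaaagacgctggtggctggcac
Neat1 short 3′ end: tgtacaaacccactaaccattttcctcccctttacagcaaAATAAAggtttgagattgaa
The capitals are the longest A run of Malat1, 12 bases (chr19:5795964-5796023, − strand), and the AATAAA in the last 60 bases of the 3004-base isoform of Neat1 (chr19:5842307-5842366, − strand). The A run begins at base 6674 of the 6983 bases of Malat1 and ends 298 bases before the annotated 3′ end. The last 60 bases of annotated Malat1 also hold 1 AATAAA, and those of the 20771-base isoform of Neat1 hold none. Counts per gene do not separate the isoforms of Neat1.

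Sequencing depth differed little between the libraries, from 16709201 to 17719366 counts, and TMM factors lay between 0.968 and 1.05. Sox2 was lower in Sox2-KD (log2FC -0.64, edgeR quasi-likelihood adjusted p = 0.0479), and both Cdk9-KD libraries (73.1 and 53.2 CPM) were below both controls (109 and 129 CPM) for Cdk9 (log2FC -0.91, adjusted p = 0.0985). Hnrnpk stood at 697 and 1144 CPM in the hnRNPK-KD-labelled libraries, against 1094 and 1131 CPM in control, so that only replicate 1 was low and directions drawn from that group rest on libraries of which 1 shows the knockdown. The 8 ESC markers summed to between 4922 and 6896 CPM in every library. Fibroblast markers summed to at most 6.19 CPM, with 1 of 6 at 0 in every group but Sox2-KD.

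The 9 genes covered a wide range of levels. In TMM-scaled CPM, the counts of a gene relative to the scaled library total, the mean of control was 372 for Malat1, 188 for Gas5, 156 for Neat1, 118 for Snhg1, 111 for Snhg5, 40.2 for Snhg6, 37.3 for Snhg12, 21.8 for Snhg8 and 1.22 for Snhg3. The 2 control libraries of Malat1 (635 and 109 CPM) and of Neat1 (227 and 84.7 CPM) overlapped the values of Gas5, Snhg1 and Snhg5. The places of Malat1 and Neat1 among these 5 are therefore not fixed by the replicates. Gas5 (215 and 160 CPM) was above Snhg1 (132 and 104 CPM) and Snhg5 (123 and 98.1 CPM) in both control libraries. Per kilobase of annotated exon, the mean over the 8 libraries was 72.1 CPM for Malat1, 61.6 for Snhg5, 49.8 for Gas5, 40.9 for Snhg1, 33.2 for Snhg6, 26.1 for Snhg8, 17.4 for Snhg12, 9.78 for Neat1 and 1.04 for Snhg3. On this scale the range over libraries was 15.6 to 139 for Malat1, 44.2 to 73.0 for Snhg5, 39.8 to 58.3 for Gas5, 33.3 to 46.5 for Snhg1, 25.3 to 39.7 for Snhg6 and 19.4 to 30.8 for Snhg8, so that each of these overlapped the next in the order. Per kilobase of the longest spliced transcript, which leaves out retained introns, Gas5 came first in control (323 and 241 CPM per kilobase).

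**Figure D2:**
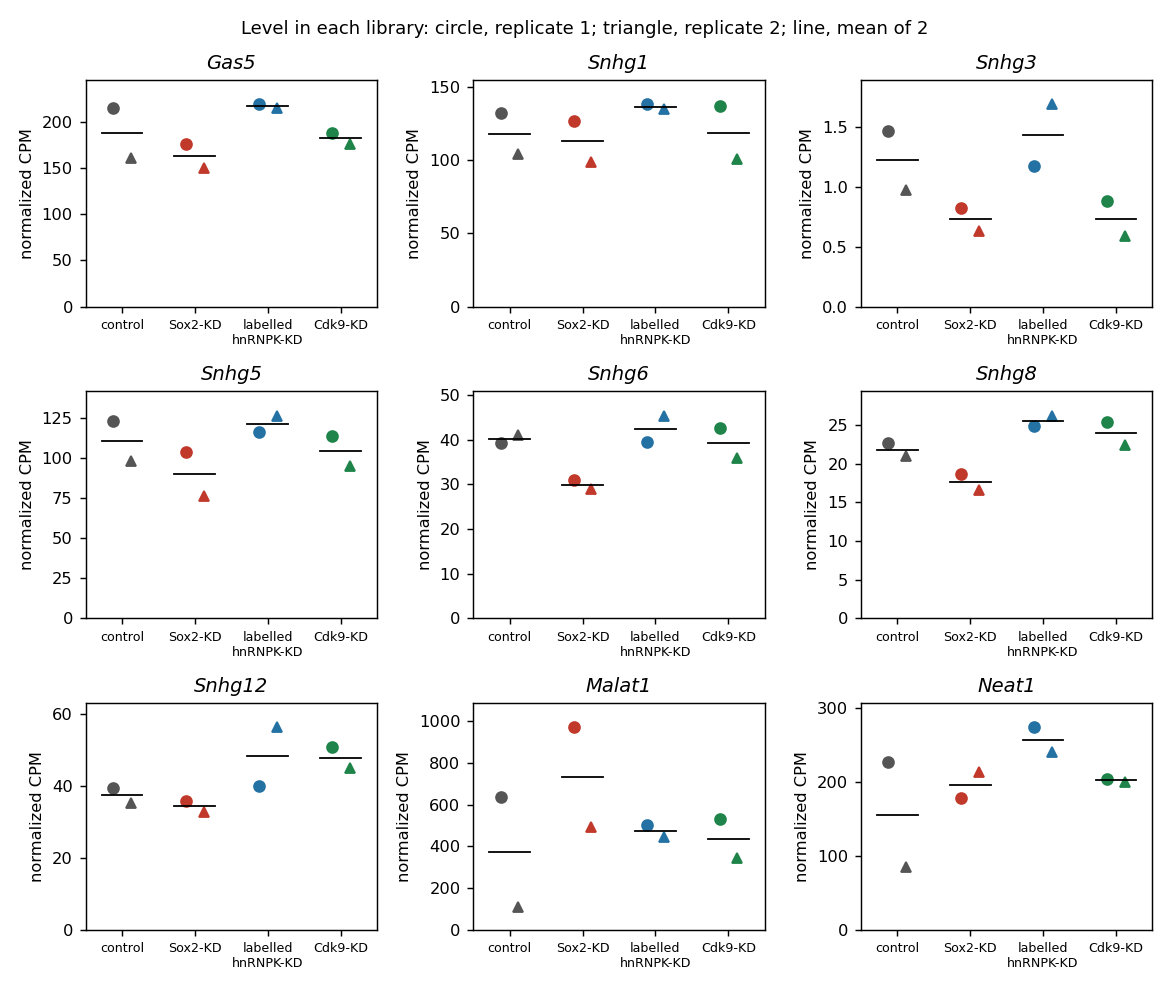
Normalized CPM (vertical axis from 0) of each of the 9 genes in the 8 libraries, by group. Circles are replicate 1, triangles replicate 2 and lines the mean of 2. Control replicate 2 is the lowest library of all for Malat1 (109 CPM) and Neat1 (84.7 CPM), and both Sox2-KD libraries lie below both controls for Snhg3, Snhg6 and Snhg8.

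Snhg3 was close to the limit of detection. It had 26 and 17 counts in control, 15 and 11 in Sox2-KD, 20 and 29 in the hnRNPK-KD-labelled libraries, and 15 and 10 in Cdk9-KD. Of its 986 exonic bases, 135 (13.7%) overlap no other gene. It shares exons with Rcc1 on the same strand and with the opposite-strand lincRNA Gm17300, which had between 237 and 456 counts, and the strand setting of the counting is not stated. Values of Snhg3 are therefore uncertain. For the other hosts, between 79.1% (Snhg1) and 91.7% (Snhg5) of the exonic bases are unshared.

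None of the 9 genes was called in any of the 6 comparisons. A gene was called at a Benjamini-Hochberg adjusted p under 0.05 over all 16504 genes and an absolute log2 fold change (log2FC) over 0.6. In Sox2-KD against control, 4.32% of all tested genes were called. In the hnRNPK-KD-labelled libraries against control, 0% were called (0 genes with edgeR's quasi-likelihood test, 1325 at an unadjusted p under 0.05, 83 with DESeq2 and 87 with the likelihood ratio test), and in Cdk9-KD against control 0.139%. Between knockdowns, 5.9% were called in Sox2-KD against the hnRNPK-KD-labelled libraries, 7.33% in Sox2-KD against Cdk9-KD, and 0% in Cdk9-KD against the hnRNPK-KD-labelled libraries (943 at an unadjusted p under 0.05, 56 with DESeq2, 67 with the likelihood ratio test). DESeq2 and the likelihood ratio test also called 0 of the 9 genes in each comparison. With the quasi-likelihood test, an unadjusted p under 0.05 was reached by 1 of the 9 in Sox2-KD against control, beside 19.3% of all genes, and by none in the hnRNPK-KD-labelled libraries (8.03% of all genes) or in Cdk9-KD (10.4%). It was reached by 5 in Sox2-KD against the hnRNPK-KD-labelled libraries (21.3% of all genes), by 3 in Sox2-KD against Cdk9-KD (21.7%) and by none in Cdk9-KD against the hnRNPK-KD-labelled libraries (5.71%).

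Sox2 encodes a transcription factor of the pluripotency network. All 7 hosts had a lower fitted level in Sox2-KD, between -0.74 (Snhg3) and -0.07 (Snhg1) on the log2 scale, with a median of -0.30 beside 0.02 over all genes tested. Their direction was the same with TMM, with DESeq2-type size factors and with library totals. Without control replicate 1 it held for 5 of 7, with a median of -0.14, and without Sox2-KD replicate 2 for 6 of 7, with a median of -0.10. Both Sox2-KD libraries were below both controls for 3 of the 9 genes, Snhg3, Snhg6 and Snhg8, and 25.2% of all genes were placed so.

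Snhg6, which hosts Snord87, had the smallest p of the 9 in this comparison. Its level was 39.2 and 41.1 CPM in control, 31.0 and 29.0 CPM in Sox2-KD, 39.5 and 45.5 CPM in the hnRNPK-KD-labelled libraries, and 42.6 and 36.0 CPM in Cdk9-KD. The 2 Sox2-KD libraries were the lowest of the 8. The log2FC was -0.42 (SE 0.16, 95% interval -0.78 to -0.06), with an unadjusted p of 0.0264 and an adjusted p of 0.188 (edgeR quasi-likelihood test). Over its alternatives the log2FC lay between -0.48 and -0.35, and the adjusted p between 0.129 and 0.573.

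Snhg8, the host of Snora24, stood at 22.6 and 21.0 CPM in control and at 18.6 and 16.5 CPM in Sox2-KD. It was 24.9 and 26.2 CPM in the hnRNPK-KD-labelled libraries, and 25.5 and 22.4 CPM in Cdk9-KD. Again the Sox2-KD libraries were the lowest of the 8, and the log2FC against control was -0.31 (SE 0.18, adjusted p = 0.393 in the quasi-likelihood test). Snhg5, the host of the Snord50 pair, had 123 and 98.1 CPM in control and 103 and 76.5 CPM in Sox2-KD. These groups overlapped, with a log2FC of -0.30 (SE 0.19, adjusted p = 0.424 in the quasi-likelihood test), which was -0.54 without Sox2-KD replicate 1 and -0.10 without replicate 2.

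Gas5, known to accumulate when growth stops and translation falls, was at 215 and 160 CPM in control, 176 and 150 CPM in Sox2-KD, 219 and 214 CPM in the hnRNPK-KD-labelled libraries, and 188 and 176 CPM in Cdk9-KD. The 2 controls spanned both Cdk9-KD libraries. Its log2FC was -0.20 in Sox2-KD (SE 0.17), 0.21 in the hnRNPK-KD-labelled libraries (SE 0.17) and -0.04 in Cdk9-KD (SE 0.17), with adjusted p of 0.556, 0.825 and 0.963 in edgeR's quasi-likelihood test. Without control replicate 1 the Sox2-KD value was 0.01 and that of the hnRNPK-KD-labelled libraries 0.41, and without control replicate 2 they were -0.41 and 0.00. Snhg1, the host of Snord22 and others, had 132 and 104 CPM in control, 126 and 98.8 CPM in Sox2-KD, 138 and 134 CPM in the hnRNPK-KD-labelled libraries, and 137 and 101 CPM in Cdk9-KD. Its 95% interval in Sox2-KD ran from -0.49 to 0.36.

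The ratio of 2 hosts within a library does not depend on the scaling. The ratio of Gas5 to Snhg1 counts lay between 1.38 and 1.75 over the 8 libraries, and that of Gas5 to Snhg5 between 1.63 and 1.96. The lowest and highest ratios of Gas5 to Snhg1 were both in Cdk9-KD. By contrast, the ratio of Snhg12 to Snhg5 ran from 0.319 in control replicate 1 to 0.473 in Cdk9-KD replicate 2.

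Markers of other cell types moved unevenly in Sox2-KD. Of the trophectoderm markers, Krt8, Krt18 and Eomes were called higher, and Elf5 was not tested. Cdx2 was lower in both Sox2-KD libraries (6.10 and 6.22 CPM) than in control (19.8 and 35.1 CPM) and was not called (log2FC -2.15, SE 0.53, adjusted p = 0.0521, quasi-likelihood test). The 5 summed to between 45.3 and 57.9 CPM in control and between 154 and 280 CPM in Sox2-KD, and in the hnRNPK-KD-labelled libraries to between 64.4 and 113 CPM. Of the 5 primitive endoderm markers, Dab2 and Gata6 were called higher, and the sum was 3.72 to 5.04 CPM in control and 42.5 to 62.2 CPM in Sox2-KD. Most of that sum was Dab2, at 35.0 to 54.2 CPM in Sox2-KD. The means of Sox17 (0.75 beside 0.17 CPM in control) and Pdgfra (2.91 beside 2.22 CPM) were higher without a call. The mean of Gata4 was lower (0.81 beside 0.97 CPM). None of these markers was at 0 in every library of a group. Of the 8 ESC markers, Utf1 was called higher in Sox2-KD and none lower. The fitted level was lower for 6 of the 8, with a median log2FC of -0.22 over the list. Both Sox2-KD libraries were below both controls for 3 of the 8, beside 25.2% of all genes. Of the fibroblast markers Lum was called higher, with 23 and 13 counts beside 0 and 1 in control. The other 3 fibroblast markers tested had a lower fitted level, among them Col1a2 (4 and 1 counts beside 32 and 24, adjusted p = 0.0565, quasi-likelihood test), and the 6 summed to between 4.57 and 5.17 CPM in Sox2-KD beside 4.98 to 6.19 CPM in control. In Cdk9-KD, Eomes was called higher (19.5 and 14.3 CPM beside 3.83 and 2.58 CPM in control). The part of these cells in the values of the hosts was not tested.

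In the hnRNPK-KD-labelled libraries, all 7 hosts had a higher fitted level than in control, between 0.08 (Snhg6) and 0.37 (Snhg12), with a median of 0.21 beside 0.02 over all genes. The same direction was found under each of the 3 scalings. It held for 5 of 7 without control replicate 2, with a median of 0.04, and for 5 of 7 without replicate 2 of the group, with a median of 0.08. That replicate is the one in which Hnrnpk was not low. Both libraries lay above both controls for 4 of the 9 genes, Snhg1, Snhg8, Snhg12 and Neat1, beside 20.4% of all genes. With library totals in place of TMM, 2 of the 9 were placed so.

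Snhg12, the host of Snora16a, Snora44, Snora61 and Snord99, was the host with the largest difference here. It had 39.3 and 35.2 CPM in control, 40.0 and 56.2 CPM in the hnRNPK-KD-labelled libraries, 50.6 and 44.9 CPM in Cdk9-KD, and 35.7 and 32.8 CPM in Sox2-KD. The highest library was replicate 2 of those labelled hnRNPK-KD, and replicate 1 was within 1 CPM of the higher control. The log2FC was 0.37 (SE 0.19, adjusted p = 0.669) in these libraries and 0.36 (SE 0.19, adjusted p = 0.546) in Cdk9-KD with edgeR's quasi-likelihood test. Without replicate 2 the first of these was 0.08.

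In Cdk9-KD, which targets the kinase of P-TEFb, the complex that releases paused RNA polymerase II, the hosts had no common direction. The fitted level was above control for 3 of 7 hosts and below for 4, with a median of -0.03 beside 0.02 over all genes. With DESeq2-type size factors it was above for 2. Both Cdk9-KD libraries were above both controls for Snhg12 alone, 1 of 9 genes beside 21.2% of all genes, and below both for Snhg3 alone, 1 of 9 beside 18%. The interval of the difference left room for moderate changes in each direction, for example -0.41 to 0.32 for Gas5 and -0.49 to 0.33 for Snhg5.

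**Figure D3:**
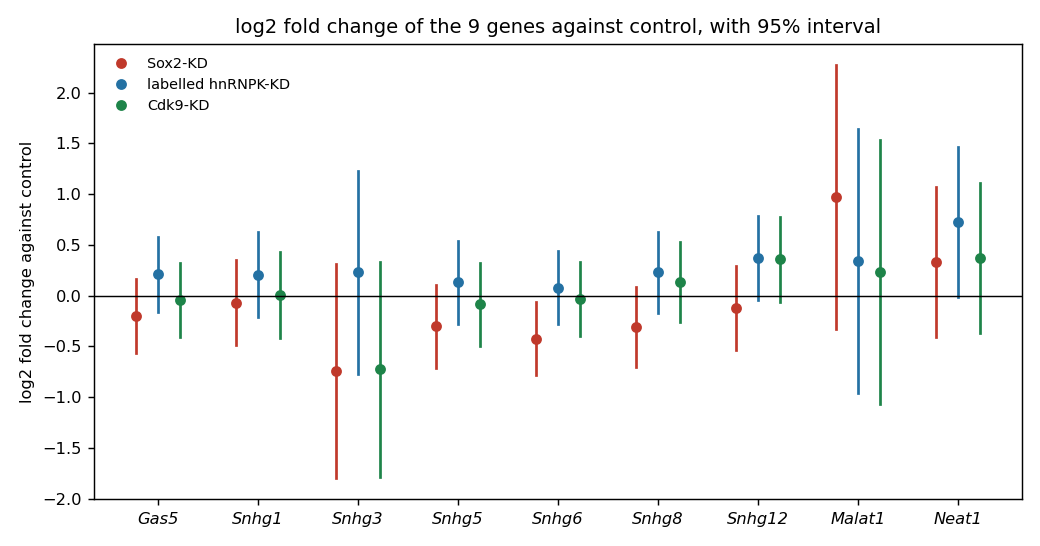
log2 fold change of the 9 genes against control (vertical axis), with 95% intervals from the quasi-likelihood fit, for Sox2-KD, the hnRNPK-KD-labelled libraries and Cdk9-KD. All 7 hosts lie below 0 in Sox2-KD and above 0 in the hnRNPK-KD-labelled libraries, and the interval excludes 0 for Snhg6 in Sox2-KD alone. The 3 sets of values share the control libraries.

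The knockdowns were also compared with each other. This takes the control group out of the fold change, but the spread was still estimated over all 4 groups. All 7 hosts and Neat1 were lower in both Sox2-KD libraries than in both hnRNPK-KD-labelled libraries, 8 of 9 genes, beside 27.3% of all genes. With library totals, 7 of 9 were placed so. The median log2FC of the 7 hosts was -0.49 with TMM, beside -0.01 over all genes, and -0.38 with library totals, beside 0.10. That scaling moved the median of all genes by 0.11. Among the hosts other than Snhg3, the largest differences were those of Snhg8 (log2FC -0.54, SE 0.18, adjusted p = 0.110), Snhg6 (log2FC -0.50, SE 0.16, adjusted p = 0.104) and Snhg12 (log2FC -0.49, SE 0.19, adjusted p = 0.159), all with edgeR's quasi-likelihood test. None passed the threshold, with unadjusted p of 0.0125, 0.0112 and 0.0249. Gas5 (log2FC -0.41) and Snhg5 (log2FC -0.43) also reached an unadjusted p under 0.05, at 0.0306 and 0.0413. Leaving out a library moved Snhg12 between -0.72 (without replicate 1 of the hnRNPK-KD-labelled libraries) and -0.21 (without replicate 2), and Snhg5 between -0.68 (without Sox2-KD replicate 1) and -0.23 (without replicate 2).

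Against Cdk9-KD, both Sox2-KD libraries were lower for Snhg6, Snhg8 and Snhg12, 3 of 9 genes beside 25.1% of all genes. The values were -0.39, -0.44 and -0.48 on the log2 scale, with adjusted p of 0.194, 0.176 and 0.164 in the quasi-likelihood test. Between Cdk9-KD and the hnRNPK-KD-labelled libraries, Gas5, Snhg3, Snhg5 and Neat1 were lower in both Cdk9-KD libraries, 4 of 9 beside 14.3% of all genes. The log2FC was -0.25 for Gas5, -0.96 for Snhg3, -0.21 for Snhg5 and -0.35 for Neat1, with adjusted p of 0.908, 0.877, 0.934 and 0.939 in the quasi-likelihood test. With library totals, 3 of 9 were placed so.

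Over the 8 libraries, the levels of the hosts varied together. The Pearson correlation of log2(CPM + 0.5) was above 0 in 21 of 21 pairs of hosts, from 0.44 (Snhg3 with Snhg12) to 0.92 (Gas5 with Snhg5), with a median of 0.73. The libraries share the scaling factor and 2 come from each group, so that these values describe the 8 libraries. The mean of the 7 centred profiles was lowest in Sox2-KD, at -0.13 and -0.36, and highest in replicate 2 of the hnRNPK-KD-labelled libraries, at 0.31. All 7 hosts were above their own mean in that library and none in Sox2-KD replicate 2. Of 9702 other abundant genes (average log2 CPM over 3), those most like this mean profile were Eif3i (r = 0.97 over 8 libraries), Ppp1r8 (r = 0.95) and Tfeb (r = 0.95).

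**Figure D4:**
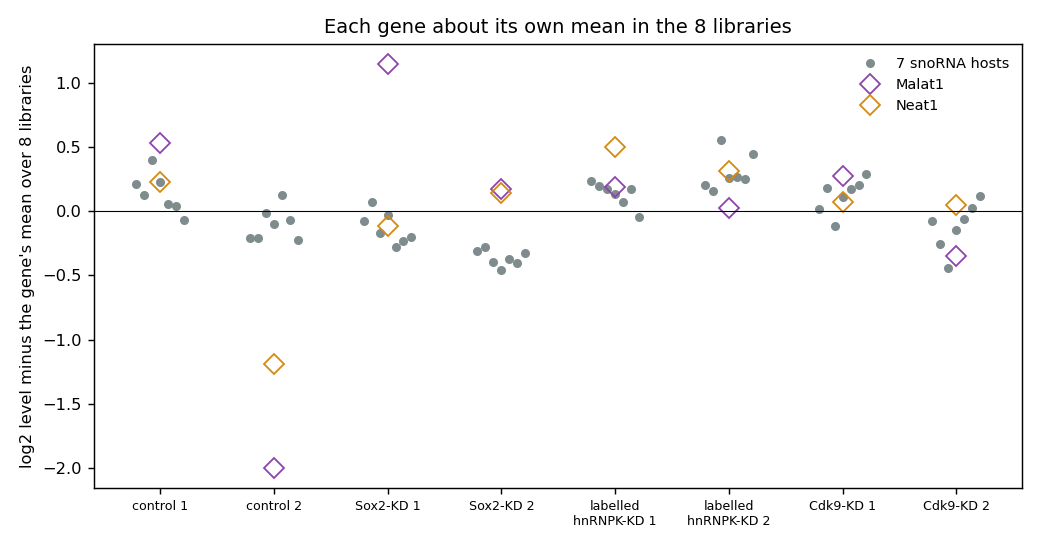
log2(CPM + 0.5) of each gene minus its mean over the 8 libraries (vertical axis), by library. Grey points are the 7 hosts, purple and orange diamonds Malat1 and Neat1. Malat1 (-2.00) and Neat1 (-1.19) are far below their mean in control replicate 2, where the hosts average -0.10.

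Malat1 differed widely between the 2 control libraries. It had 11279 counts (635 CPM) in control replicate 1 and 1905 (109 CPM) in replicate 2, a ratio of 5.82. In Sox2-KD it was 971 and 493 CPM, in the hnRNPK-KD-labelled libraries 500 and 445 CPM, and in Cdk9-KD 530 and 343 CPM. All 6 knockdown libraries were above control replicate 2, and only Sox2-KD replicate 1 was above control replicate 1. Of 9711 abundant genes, Malat1 included, 2 had a larger ratio between the 2 controls, and over all 16504 genes 10 did.

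The comparisons of Malat1 rest on which control library is read. With both, the log2FC was 0.98 in Sox2-KD (SE 0.59, 95% interval -0.32 to 2.28, adjusted p = 0.416), 0.35 in the hnRNPK-KD-labelled libraries (SE 0.59, adjusted p = 0.946) and 0.23 in Cdk9-KD (SE 0.59, adjusted p = 0.938) in edgeR's quasi-likelihood test. With control replicate 2 alone, these were 2.73, 2.09 and 1.96, and the first was called (adjusted p = 0.0196). With control replicate 1 alone, they were 0.20, -0.44 and -0.57. A lone control library is assumed in these fits to vary like the other groups. Against the hnRNPK-KD-labelled libraries, Sox2-KD had a log2FC of 0.63 (95% interval -0.67 to 1.93). The control group does not enter this fold change, but the interval rests on the spread over all 4 groups, the 2 controls included.

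Neat1 showed the same 2 controls apart, less widely. It had 227 and 84.7 CPM in control, a ratio of 2.69, and 179 and 214 CPM in Sox2-KD. It had 275 and 241 CPM in the hnRNPK-KD-labelled libraries, and 204 and 200 CPM in Cdk9-KD. Control replicate 2 was the lowest of the 8, and both hnRNPK-KD-labelled libraries were above the other 6. The log2FC against control was 0.33 in Sox2-KD (SE 0.33, adjusted p = 0.645), 0.72 in the hnRNPK-KD-labelled libraries (SE 0.33, 95% interval -0.01 to 1.46, unadjusted p = 0.0549, adjusted p = 0.629) and 0.38 in Cdk9-KD (SE 0.33, adjusted p = 0.754) in edgeR's quasi-likelihood test. With control replicate 2 alone, the values were 1.20 (called, adjusted p = 0.0262), 1.58 and 1.22, and with control replicate 1 alone -0.22, 0.17 and -0.20. Of 9711 abundant genes, 19 had a larger ratio between the controls than Neat1.

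**Figure D5:**
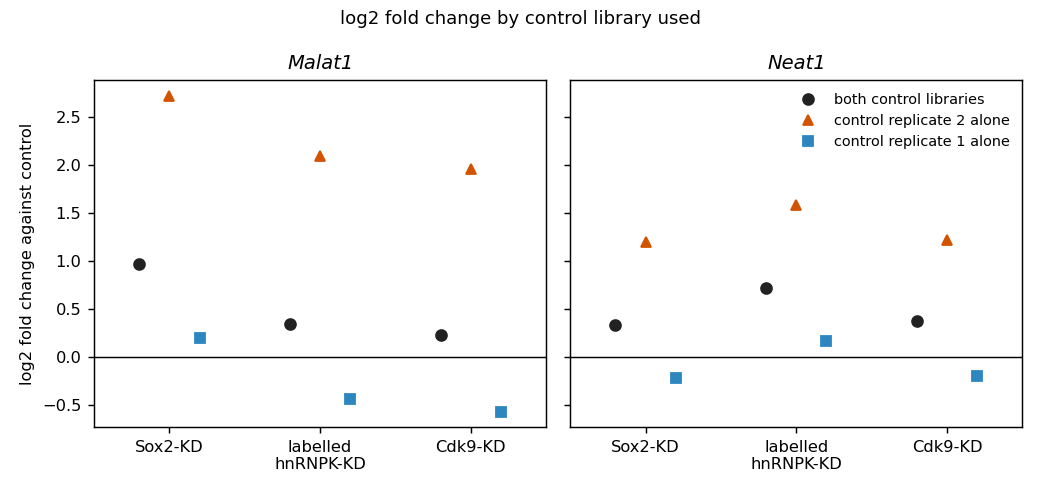
log2 fold change of Malat1 (left) and Neat1 (right) against control (vertical axis) for the 3 knockdowns, with both control libraries (circles), control replicate 2 alone (triangles) and control replicate 1 alone (squares). Malat1 in Sox2-KD moves between 0.20 and 2.73 with the control library used.

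Within a library, the ratio of Malat1 to Neat1 counts was 2.79 and 1.29 in control, 5.43 and 2.30 in Sox2-KD, 1.82 and 1.85 in the hnRNPK-KD-labelled libraries, and 2.59 and 1.71 in Cdk9-KD. Sox2-KD replicate 1 was the highest and control replicate 2 the lowest. The correlation of the 2 genes over the 8 libraries was 0.76. Control replicate 2 was the farthest point for both (-2.00 and -1.19 about their means), and the correlation without it was not computed. Among the other libraries, Malat1 was highest in Sox2-KD replicate 1 (1.15), where Neat1 was lowest (-0.12). The correlations that follow include control replicate 2 as well. The abundant genes most like Malat1 were Prkra (r = 0.94 over 8 libraries), Cyb5r1 (r = 0.93) and Zfyve19 (r = 0.93), and those most like Neat1 were Abca1 (r = 0.93), Gpr89 (r = 0.93) and Ankrd16 (r = 0.92). Abca1, a cholesterol exporter, had 51.7 and 23.4 CPM in control and between 56.2 and 65.4 CPM in the 6 other libraries.

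Other nuclear lncRNAs were also mostly lower in control replicate 2. Of 13 tested of a list of 14, 11 were lower there than in control replicate 1, with a median difference of -0.51 on the log2(CPM + 0.5) scale beside -0.01 over all genes. Of the 7 hosts 6 were lower, with a median of -0.33. The share of counts on mitochondrial mRNAs lay between 2.45% and 3.02% in the 8 libraries, and on ribosomal protein genes between 6.06% and 7.62%. In control replicates 1 and 2 these shares were 2.79% and 2.99%, and 7.04% and 6.92%. The part of handling, RNA quality or culture in the low values of control replicate 2 was not tested.

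In the list of other nuclear lncRNAs, 2 of 13 genes were called in Sox2-KD, 1 in each direction, beside 4.32% of all genes. None was called in the hnRNPK-KD-labelled libraries or in Cdk9-KD against control, where 0% and 0.139% of all genes were called. Against the hnRNPK-KD-labelled libraries, 1 was called higher and 1 lower in Sox2-KD, beside 5.9% of all genes. The same numbers were called against Cdk9-KD, beside 7.33%. Xist, the RNA that coats the inactive X chromosome, stood at 10.2 and 5.38 CPM in control and 22.1 and 25.8 CPM in Sox2-KD (log2FC 1.62, SE 0.36, adjusted p = 0.0375, edgeR quasi-likelihood test). It overlaps its antisense partner Tsix, and without a stated strand setting the reads of both cannot be told apart. Firre, a nuclear RNA that is transcribed from the X chromosome, stood at 154 and 141 CPM in control and 79.9 and 76.8 CPM in Sox2-KD (log2FC -0.91, SE 0.21, adjusted p = 0.0406). Neither was called when any 1 of the 4 libraries compared was left out. The median log2FC of the list was 0.46 in Sox2-KD, 0.48 in the hnRNPK-KD-labelled libraries and 0.30 in Cdk9-KD, beside 0.02 over all genes in each. Without control replicate 2 the medians were 0.27, 0.24 and -0.06.

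Other lncRNA hosts of snoRNAs showed no call in the comparisons with control. Of 10 tested of 14, 5 were above and 5 below control in Sox2-KD, with a median of 0.00. In the hnRNPK-KD-labelled libraries 7 of 10 were above, with a median of 0.19, and in Cdk9-KD 10 of 10 were above, with a median of 0.19. Without Cdk9-KD replicate 1 that last number was 6 of 10, with a median of 0.06, and without replicate 2 of the hnRNPK-KD-labelled libraries the number there was 4 of 10, with a median of -0.09. Snhg18 had the smallest p of this list, with 10 and 4 counts in control and 1 and 1 in Sox2-KD, too few for a fold. It was called lower in Sox2-KD than in Cdk9-KD (adjusted p = 0.0294, quasi-likelihood test). Among 220 tested protein-coding genes that contain a snoRNA, 3 were called higher and 2 lower in Sox2-KD, beside 4.32% of all genes. Their median log2FC was -0.10. None was called in the hnRNPK-KD-labelled libraries or in Cdk9-KD (medians 0.02 and -0.02), where 0% and 0.139% of all genes were called. Against the hnRNPK-KD-labelled libraries, 6 were called higher and 3 lower in Sox2-KD, beside 5.9% of all genes. Against Cdk9-KD these were 4 and 3, beside 7.33%.

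The proteins that bind and assemble snoRNAs were followed beside the hosts. Of 17 genes, such as Fbl (the C/D methyltransferase), Dkc1 (the H/ACA pseudouridine synthase) and the chaperone Nolc1, none was called in any comparison with control. The fitted level in Sox2-KD was lower for 16 of 17 (median -0.25), beside 7947 of the 16504 genes tested. An unadjusted p under 0.05 in the quasi-likelihood test was reached by 3 of the 17, beside 19.3% of all genes. Nolc1 had the smallest p, with 302 and 299 CPM in control and 231 and 199 CPM in Sox2-KD (log2FC -0.48, SE 0.14, adjusted p = 0.0756, quasi-likelihood test). Without Sox2-KD replicate 2, 12 of 17 were lower, with a median of -0.09. In the hnRNPK-KD-labelled libraries 14 of 17 were above control (median 0.12), and in Cdk9-KD 12 of 17 (median 0.06). Between knockdowns, 1 of the 17 was called, lower in Sox2-KD than in Cdk9-KD, where 7.33% of all genes were called.

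Among mRNAs that begin with a 5′TOP, which share this feature with several hosts, none was called in the comparisons with control. All 11 listed genes other than ribosomal protein genes had a lower fitted level in Sox2-KD (median -0.22), led by Npm1, which encodes a nucleolar chaperone (3388 and 3553 CPM in control, 2739 and 2099 CPM in Sox2-KD, log2FC -0.52, SE 0.16, adjusted p = 0.0956, quasi-likelihood test). Of these 11, 1 was called lower in Sox2-KD than in the hnRNPK-KD-labelled libraries, where 5.9% of all genes were called. Of 84 ribosomal protein genes, 82 were lower in Sox2-KD, with a median of -0.26, and none was called. In the hnRNPK-KD-labelled libraries 64 of 84 were lower (median -0.04) and in Cdk9-KD 50 of 84 (median -0.04). A single library turned these: without replicate 1 or 2 of the hnRNPK-KD-labelled libraries 38 or 75 were lower (medians 0.01 and -0.14), and without replicate 1 or 2 of Cdk9-KD 78 or 19 (medians -0.20 and 0.09). Ribosomal protein genes have many processed copies, so that their counts may be split.

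The 10 NMD factors and the 9 paraspeckle proteins had no call in the comparisons with control either. Their medians in Sox2-KD were 0.10 and -0.11, in the hnRNPK-KD-labelled libraries 0.12 and 0.06, and in Cdk9-KD 0.19 and 0.02. The smallest p of the NMD list was that of Upf3a in Cdk9-KD (log2FC 0.41, SE 0.14, adjusted p = 0.358, quasi-likelihood test), and that of the paraspeckle list was Matr3 in Sox2-KD (log2FC -0.45, SE 0.19, adjusted p = 0.238, quasi-likelihood test). Between knockdowns, 1 NMD factor was called, higher in Sox2-KD than in Cdk9-KD, where 7.33% of all genes were called.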

How the data were processed

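The authors trimmed reads with Trimmomatic, aligned them with STAR (version 2.7.9a in the submitters' processing notes) to mm10 with GENCODE vM23, and counted them with featureCounts (2.0.1 in the same notes). The deposited values are raw counts per gene in 8 libraries, neither normalized nor pooled. Strand and shared-read settings are not given in the sources used here. All 8 columns were matched to groups by name. Of 55335 genes, 55154 had a symbol in GENCODE vM21, which also gave positions, and 16504 passed filterByExpr (minimum count 10, minimum total 15). Tests used edgeR 4.0.16 in R 4.3.3: TMM, 4 groups in 1 fit over 8 libraries, quasi-likelihood test, Benjamini-Hochberg adjustment over all genes, called at adjusted p under 0.05 and absolute log2FC over 0.6. The fit was tested on simulated data. Library totals were 16709201 to 17719366 counts. Snhg3 had 10 to 29 counts a library, few enough for counting error to matter. The other members had at least 290 counts, and the part of counting error in their spread between replicates was not tested. Standard errors come from the moderated fit.

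Genes named were the 9 members, the 3 targets, called genes of 6 lists (or the smallest p of a list without one), and the 3 abundant genes most correlated with the hosts' mean, Malat1 and Neat1. Members and lists were chosen with earlier results of these data known. Alternatives were DESeq2 1.42.0, its size factors, library totals, 2 other filters, the 4 libraries compared alone, a replicate block, the likelihood ratio test, no fold minimum and leaving out each library. Figures used matplotlib 3.10.9.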

Additional observations from a re-analysis of the deposited data

How the results depend on the processing

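No alternative other than leaving out control replicate 1 called any of the 9 genes. Without that library, the number called in Sox2-KD was 2 (Malat1 and Neat1), so that leaving out each library gave 0 to 2. Of 27 pairs of gene and comparison with control, 14 kept their sign throughout, and 23 of 324 values changed sign. Leaving out each library gave these log2FC: in Sox2-KD -0.41 to 0.01 for Gas5, -0.27 to 0.10 for Snhg1 and -0.22 to 1.20 for Neat1; in the hnRNPK-KD-labelled libraries -0.08 to 0.53 for Snhg3, -0.04 to 0.28 for Snhg5, -0.05 to 0.17 for Snhg6 and -0.44 to 2.09 for Malat1; in Cdk9-KD -0.27 to 0.15 for Gas5, -0.26 to 0.21 for Snhg1, -0.27 to 0.05 for Snhg5, -0.19 to 0.08 for Snhg6, -0.57 to 1.96 for Malat1 and -0.20 to 1.22 for Neat1. Snhg1 in Cdk9-KD (0.01) also became -0.01 with DESeq2, with its size factors and with at least 10 counts in every library, and 0 with no filter.

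Counts over all genes moved more. Leaving out each library gave 144 to 343 in Sox2-KD (713 with all), 0 to 1 in the hnRNPK-KD-labelled libraries (0), 0 to 32 in Cdk9-KD (23), 90 to 875 in Sox2-KD against the hnRNPK-KD-labelled libraries (974), 337 to 863 in Sox2-KD against Cdk9-KD (1210) and 0 to 6 in Cdk9-KD against the hnRNPK-KD-labelled libraries (0). In the 3 comparisons with Sox2-KD the lowest came without Sox2-KD replicate 2; in Cdk9-KD against control, leaving out control replicate 2 gave 0, control replicate 1 gave 1 and Cdk9-KD replicate 2 gave 6. A group left with 1 library is assumed to vary like the others. In the same order the likelihood ratio test called 1350, 87, 279, 1690, 1869 and 67. DESeq2 called 83 in the hnRNPK-KD-labelled libraries, 222 in Cdk9-KD and 56 between these groups, and no filter called 1 in the hnRNPK-KD-labelled libraries. Fewer libraries leave fewer degrees of freedom; the cause of the other changes was not tested. The labels tie replicate numbers to nothing shared. Differences between replicates correlated at 0.31, 0.14 and 0.11 among control, Sox2-KD and the hnRNPK-KD-labelled libraries, and at -0.23 to 0.02 between Cdk9-KD and these groups, so that the numbers were not taken to pair the libraries. With the number as a block, 15 genes were called in Cdk9-KD and no other count moved by over 1.5 times.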

Other observations

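The 2 control libraries differed by over 2-fold in 78 of 9711 abundant genes. Genes chosen after their values were seen include Bnip3 (39.0 CPM in replicate 1 and 8.02 in replicate 2) and Vegfa (75.5 and 24.4 CPM), which were lower in replicate 2 as Malat1 was, and Ppp1r10 (34.1 and 130 CPM), which was higher.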
